A study of Mus musculus with 28 samples.

Results

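In mouse mature olfactory sensory neurons, 490 of 22789 genomic regions bound by Ldb1 (2.15%) also carried peaks of CTCF and of the cohesin subunit Rad21. A control Ldb1 region was a set of linked peaks, overlapping by at least 1 base, from at least 2 of the 3 control Ldb1 libraries. It was kept here if it overlapped a CTCF region and a Rad21 region, each made of peaks linked in both libraries of that protein. The remaining control Ldb1 regions fell into 539 with a CTCF region alone, 381 with a Rad21 region alone and 21379 with neither.

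Chromatin immunoprecipitation and sequencing (ChIP-seq) was run on neurons of the main olfactory epithelium that were fixed with formaldehyde and then sorted. Control neurons came from OMP-IRES-GFP mice and gave 2 CTCF, 2 Rad21 and 3 Ldb1 libraries. The Lhx2 KO neurons, with 2 Ldb1 libraries, had the driver OMP-IRES-Cre, a floxed Lhx2 on both chromosomes (Lhx2fl/fl) and the reporter Rosa-CAG-tdtom+/fl, and 2 further Ldb1 libraries came from Olfr1507+ cells of M28-IRES-GFP mice. Cre driven from Omp acts only once a neuron has matured, so Lhx2 was present while these neurons formed, and the Olfr1507+ cells are the neurons of 1 receptor choice. Peak lists hold no RNA, so neither the loss of Lhx2 nor the label of the cells as mature neurons could be checked with expression. Nothing in the labels ties the libraries to separate mice, and the exact p-values given here measure only the spread between libraries, which may be technical.

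CTCF is a zinc-finger protein that binds a long, directional DNA motif, and cohesin, the ring complex to which Rad21 belongs, extrudes chromatin loops and halts at bound CTCF. Sites that hold both are the usual anchors of loops and the edges of contact domains. Ldb1 has no DNA-binding domain: it self-associates and is carried to DNA by LIM-domain partners, such as the homeodomain factor Lhx2 in these neurons, and it joins distant enhancers to one another. In olfactory neurons Lhx2, Ebf factors and Ldb1 are known from the enhancers that act on odorant receptor (OR) genes.

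These 6 stretches upstream of annotated gene starts are shown because all 3 proteins had a peak over at least part of each. Each stretch also lies in no annotated gene body. They come from the RefSeq promoter table (GRCm38.p6, named mm10 by the submitters) and are written 5′ to 3′ on the strand of the gene. In the first 2, from Vps18 (chr2:119288623-119288714, plus strand) and Gosr1 (chr11:76763635-76763726, minus strand), capitals mark a match to the core of the CTCF motif on either strand. In the other 4 no such core was found in the window, and capitals mark the 10 bases on either side of the centre of the second CTCF library's peak. These are Sh3gl1 (chr17:56036691-56036810, minus strand), 4930471G24Rik (chr13:47667462-47667549, plus strand), Mpc2 (chr1:165461139-165461258, plus strand) and Wdr18 (chr10:79959998-79960117, plus strand).
Vps18: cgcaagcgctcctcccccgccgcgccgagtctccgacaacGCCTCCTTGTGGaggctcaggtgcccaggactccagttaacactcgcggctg
Gosr1: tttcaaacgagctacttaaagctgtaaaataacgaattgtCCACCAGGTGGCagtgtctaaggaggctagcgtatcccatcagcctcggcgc
Sh3gl1: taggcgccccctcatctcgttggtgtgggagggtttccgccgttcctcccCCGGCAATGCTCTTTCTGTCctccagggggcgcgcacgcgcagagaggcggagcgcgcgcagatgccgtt
4930471G24Rik: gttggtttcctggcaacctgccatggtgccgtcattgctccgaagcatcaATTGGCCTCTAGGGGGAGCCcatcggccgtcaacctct
Mpc2: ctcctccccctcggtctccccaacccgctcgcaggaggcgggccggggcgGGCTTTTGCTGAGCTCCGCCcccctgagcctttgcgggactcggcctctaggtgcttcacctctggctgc
Wdr18: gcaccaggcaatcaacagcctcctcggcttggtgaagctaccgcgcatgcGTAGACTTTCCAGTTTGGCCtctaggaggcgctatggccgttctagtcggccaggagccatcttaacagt

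At Vps18, which encodes a subunit of the complexes that tether vesicles to endosomes and lysosomes, the centre of the core lay 30 and 12 bases from the centres of the 2 CTCF peaks and 66 and 39 bases from those of the 2 Rad21 peaks. The 3 control Ldb1 peaks were centred 102, 108 and 96 bases away from it. At Gosr1, a SNARE protein of the Golgi, the core lay 20 and 14 bases from the CTCF centres, 122 and 25 bases from the Rad21 centres and 209, 159 and 99 bases from the Ldb1 centres. In both promoters, which were chosen after their values were seen, every CTCF centre thus lay nearer the marked letters than any Ldb1 centre. Control Ldb1 peaks were 316 to 338 bases wide, so all 3 at Vps18 also covered the marked letters. At Gosr1 the peak of the third control library covered them, that of the second covered only part, and that of the first did not reach them.

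Depth could not be read from the files, which hold peaks and scores but no read numbers, and the lists differed widely in length. Control Ldb1 lists held 24877, 28879 and 16067 peaks, CTCF lists 27609 and 34210, and Rad21 lists 10487 and 28151. Far fewer were listed for Lhx2 KO, 4290 and 542, while Olfr1507+ cells gave 5095 and 21250. Within a list all peaks but 1 shared a width, from 212 bases in the second Lhx2 KO library to 380 bases in the second Olfr1507 library. The second Lhx2 KO library and the first Olfr1507 library stand apart from their partners in length, so each result that uses them is given per library.

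The 490 regions were 334 to 718 bases wide, with a median of 373. They overlapped their CTCF region by a median of 264.5 bases and their Rad21 region by 268.5 bases, and in 489 of the 490 the CTCF and Rad21 regions also overlapped each other. Seen from the other proteins, 9143 joint sites, where a CTCF region met a Rad21 region, were present in the genome, and 489 of them (5.35%) held one of the 490 regions. All 3 control Ldb1 libraries had a peak in 271 of the 490, libraries 1 and 2 alone in 201, and either other pair in 9 each. The regions were selected on the presence of control Ldb1, CTCF and Rad21 peaks, so their control values are given as a description without a test. Just inside its threshold, the smallest overlap was 24 bases with CTCF and 3 bases with Rad21, and 3 regions overlapped one of them by 10 bases or fewer. Just outside, 7 regions with Rad21 alone had a CTCF region within 100 bases, the nearest at 5 bases, and 6 regions with CTCF alone had a Rad21 region within 100 bases, the nearest at 11. Of the 539 regions with CTCF alone, 336 had a Rad21 peak in the second, longer Rad21 list and none in the first, and 189 had a Rad21 peak in neither. Of the regions with Rad21 alone, 89 had a CTCF peak in the second CTCF list and none in the first. Among the 21379 regions with neither, 4118 had a peak in the second Rad21 list and 1004 in the second CTCF list. That class thus lacks peaks linked in both libraries of a protein, but not every peak.

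Where the 3 proteins met, CTCF and Rad21 peaks ranked above the middle of their lists and Ldb1 peaks near it. The peak score, a whole number assigned by the authors whose scale is not given, was turned into a percentile rank within each list. The 490 regions had a median control Ldb1 percentile, averaged over the 3 lists with an absent peak as 0, of 35.3, against 36.6 with CTCF alone, 45.2 with neither and 88.4 with Rad21 alone. The top 10% of all control Ldb1 regions by this rank took in 39 of the 490 (7.96%), 8.16% of those with CTCF alone, 9.41% of those with neither and 48.6% of those with Rad21 alone. Where a control Ldb1 list had a peak, its median percentile at the 490 was 46.1, 52.0 and 41.7 in the 3 lists, against 55.3, 60.5 and 50.3 with neither. CTCF peaks at the 490 had median percentiles of 68.0 and 84.8 in the 2 CTCF lists, and Rad21 peaks 55.5 and 87.0. At joint sites without an Ldb1 region the CTCF medians were 74.2 and 80.7 and the Rad21 medians 55.5 and 81.3, so the first CTCF list placed the sites with Ldb1 lower and the second placed them higher. Across the 490 regions, which share libraries and are not replicates, Spearman's rho between pairs of control Ldb1 lists was 0.92 in each of the 3 pairs (n = 280 to 472). It was 0.30 to 0.58 between CTCF and Rad21 lists (n = 480 to 486), -0.21 to -0.15 between Ldb1 and CTCF lists, and -0.13 to 0.00 between Ldb1 and Rad21 lists (n = 286 to 481).

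**Figure D1:**
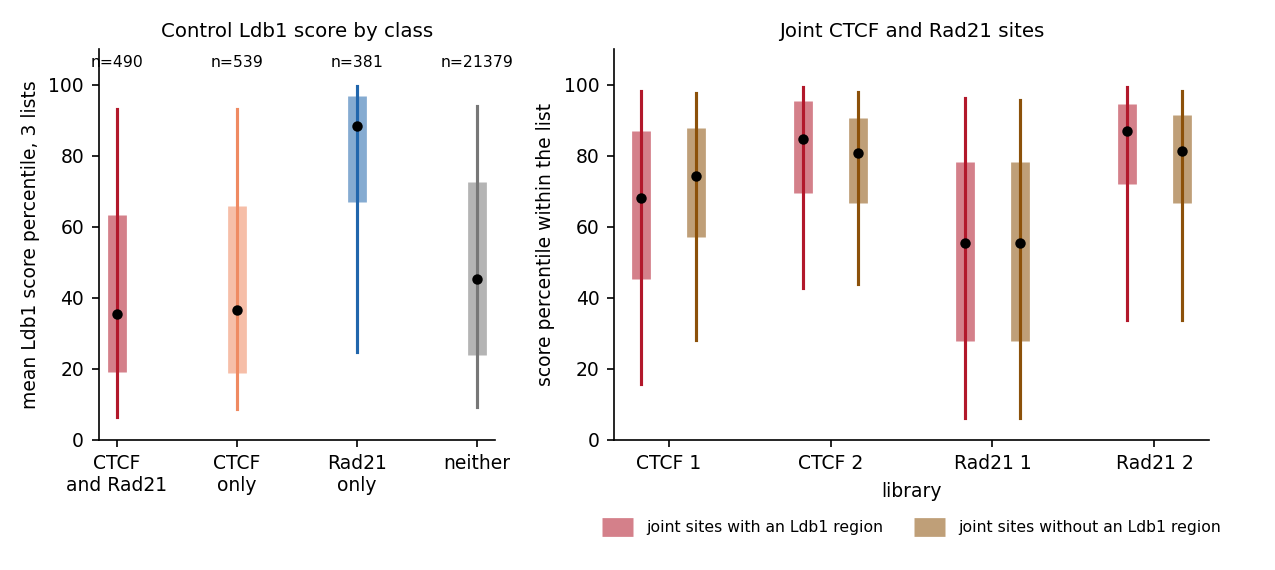
Score percentiles in the control lists. Left, mean percentile over the 3 control Ldb1 lists (y axis) for the 4 classes of control Ldb1 regions; right, percentile within each CTCF or Rad21 list at joint sites with and without an Ldb1 region. Dots are medians, thick bars the middle 50% and thin lines the 5th to 95th percentile of regions. The Ldb1 median is 35.3 for regions with CTCF and Rad21 and 88.4 for those with Rad21 alone.

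The region with the highest mean rank over the 7 control lists lay 11.8 kb from Zfp335, a zinc-finger transcription factor (chr2:164924367-164924709). Its control Ldb1 scores were 208, 270 and 146, its CTCF scores 64 and 212 and its Rad21 scores 23 and 103. It had a peak in the first Lhx2 KO library (score 10) and in both Olfr1507 libraries (50 and 226), and none in the second Lhx2 KO library. The other 9 of the top 10 were nearest to Ripor3, Slc34a1, Mef2c, Rab37, Dusp23, Fam76a, Caprin1, Macrod1 and Gm52796. Of these 10, only the region of Dusp23, a small phosphatase, overlapped a promoter window. The region 48.0 kb from Mef2c, a MADS-box transcription factor of neurons and muscle (chr13:83715067-83715427), had the highest CTCF score of the 10 in the first library (103) beside Ldb1 scores of 94, 140 and 57. It was also the one of the 10 with a single peak in the 4 libraries outside the rule, that of the second Olfr1507 library (score 66).

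Ldb1 and CTCF peaks overlapped without coinciding. The centres of control Ldb1 peaks lay a median of 97 to 107 bases from the nearest CTCF centre over the 6 pairs of libraries, and 87 to 104 bases from the nearest Rad21 centre. CTCF and Rad21 centres at the same sites were 27 to 31 bases apart, close to the 24 to 29 bases at joint sites without Ldb1. Replicates of Ldb1 placed the same region 28 to 32 bases apart. The distance between Ldb1 and CTCF thus exceeded the distance between Ldb1 replicates in all 6 pairs, and 19.4% to 23.1% of the regions had the centres within 50 bases. Regions with CTCF alone had a similar distance, 108 to 125 bases, while with Rad21 alone Ldb1 and Rad21 centres were 62 to 71 bases apart. These distances are bounded by the overlap rule and are given without a test.

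**Figure D2:**
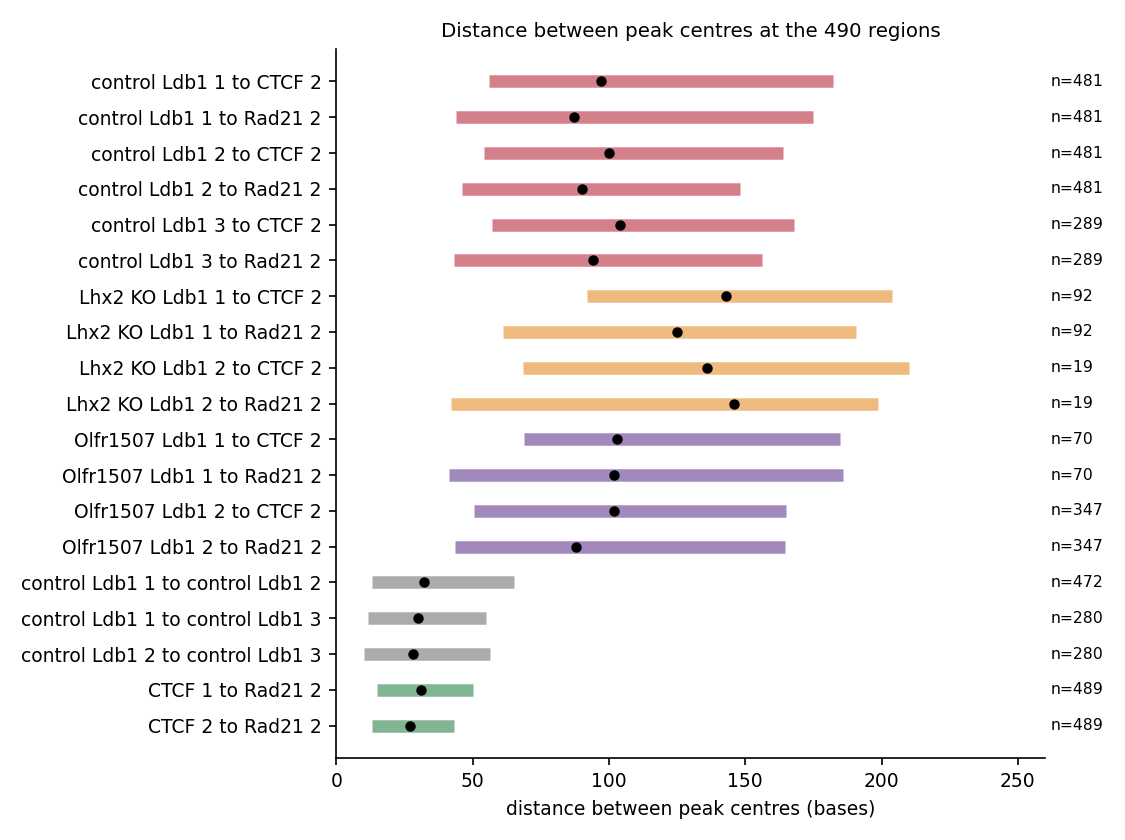
Distance in bases (x axis) between peak centres at the regions with CTCF and Rad21, for the pairs of libraries named on the y axis. Dots are medians, bars the middle 50% of regions, and n the regions with both peaks (for CTCF to Rad21, joint sites). Control Ldb1 centres are about as far from CTCF in all 3 libraries, and CTCF and Rad21 centres are closest together.

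The 4 Ldb1 libraries from Lhx2 KO and Olfr1507+ cells played no part in choosing the regions and show which of them were found again, meaning overlapped by a peak of that library by at least 1 base. In the first Lhx2 KO library 92 of the 490 (18.8%, 95% Wilson interval 15.6 to 22.5) had a peak, where 12.7% of all 22789 control Ldb1 regions did. In the second Lhx2 KO library it was 19 (3.88%, 2.50 to 5.98) against a background of 2.17%. In the first Olfr1507 library 70 had a peak (14.3%, 11.5 to 17.7) against 21.8%, and in the second 347 (70.8%, 66.6 to 74.7) against 73.5%. Shares at the 490 were above the background in both Lhx2 KO libraries and below it in both Olfr1507 libraries. The intervals cover counting error only.

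Set against the 21379 regions with neither a CTCF nor a Rad21 region, the log2 ratio of shares was 0.71 and 1.05 in the Lhx2 KO libraries (18.8% against 11.5%, and 3.88% against 1.87%). It was -0.59 and -0.05 in the Olfr1507 libraries (14.3% against 21.4%, and 70.8% against 73.3%). Over the 4 libraries the mean was 0.28 ± 0.74 (SD, n = 4), with p = 0.5 by an exact sign-flip permutation test, two-sided, which 4 libraries cannot bring below 0.125. The mean of the Lhx2 KO libraries, 0.88, exceeded that of the Olfr1507 libraries, -0.32, by 1.20 (exact permutation p = 0.333, two-sided, the smallest that 2 against 2 libraries allow). These 2 tests and the 2 tests of joint sites given further on form a family of 4, with Benjamini-Hochberg adjusted p of 0.5 and 0.444 here. The mean over the 4 libraries turned to -0.09 when an overlap of at least 50% of both peaks was required at every step, and the difference fell to 0.53. Without the second Lhx2 KO library the mean was 0.02, and without the first Rad21 library it was 0.71.

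Other classes changed the picture. Against the regions with CTCF alone the 4 ratios were 0.15 and 0.80 (Lhx2 KO) and -0.32 and 0.04 (Olfr1507), with a mean of 0.17 (exact permutation p = 0.625). Regions with Rad21 alone were found again far more often: 65.1% and 16.8% had a peak in the Lhx2 KO libraries and 58.8% and 93.7% in the Olfr1507 libraries. Against them the ratios were -1.79, -2.12, -2.04 and -0.40, all negative, with a mean of -1.59 (exact permutation p = 0.125, the smallest possible with 4 libraries). The regions with Rad21 alone also held the strongest control Ldb1 peaks, as given above. The difference between the Lhx2 KO and Olfr1507 means depended on the class compared: 1.20 against regions with neither, 0.62 against CTCF alone (exact permutation p = 0.333) and -0.73 against Rad21 alone (exact permutation p = 0.667). Regions with CTCF alone showed the same pattern as the 490 when set against those with neither, at 16.9% and 2.23% in the Lhx2 KO libraries and 17.8% and 69.0% in the Olfr1507 libraries.

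**Figure D3:**
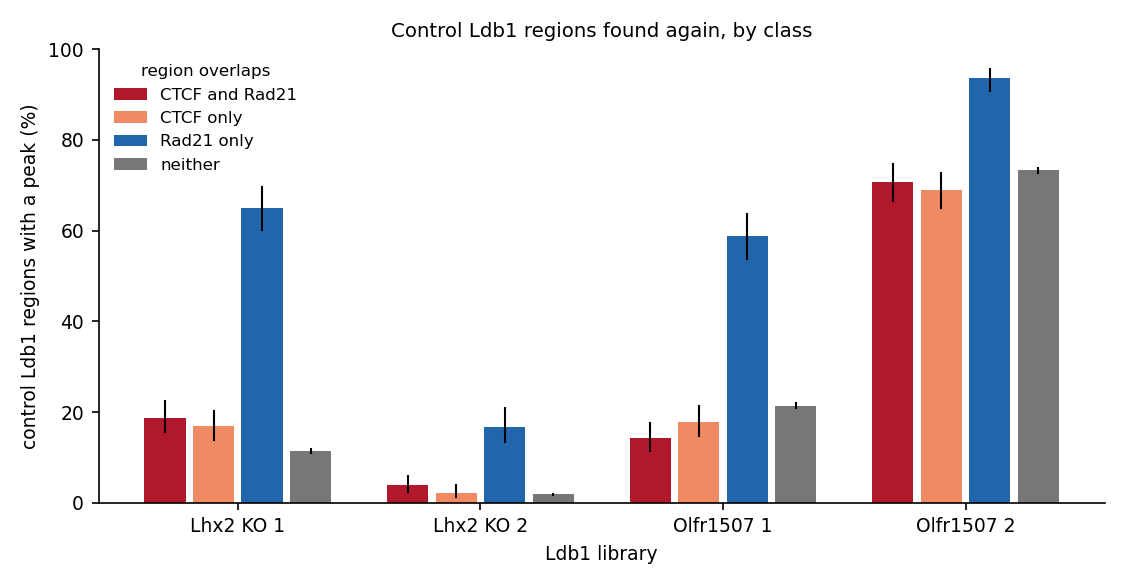
Share of control Ldb1 regions with a peak in each Ldb1 library outside the rule (y axis, percent), by class of region. Bars are shares and lines 95% Wilson intervals. Regions with CTCF and Rad21 stand above those with neither in both Lhx2 KO libraries and below them in both Olfr1507 libraries, and regions with Rad21 alone are highest in all 4.

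Control score moved with the chance of being found again, so the same shares were compared within 10 equal bins of control Ldb1 score. With the regions with neither weighted to the bins of the 490, the log2 ratios became 0.85 and 1.29 for the Lhx2 KO libraries and -0.24 and 0.07 for the Olfr1507 libraries. The mean was 0.49 (exact permutation p = 0.375) and the difference between the groups 1.15 (exact permutation p = 0.333). Weighted in the same way, regions with Rad21 alone gave ratios of -1.39 and -0.95 for the Lhx2 KO libraries and -0.03 and 0.00 for the Olfr1507 libraries, with a mean of -0.59 (exact permutation p = 0.25). At matched score the 490 were thus found again less often than regions with Rad21 alone in both Lhx2 KO libraries. In both Olfr1507 libraries they were found about as often. This weighting leans on few regions, as the weakest 5 bins held 305 of the 490 but only 59 regions with Rad21 alone. Of those 59, 29 and 3 had a peak in the Lhx2 KO libraries and 1 and 39 in the Olfr1507 libraries. In the strongest bin 20 of 39 (51.3%) had a peak in the first Lhx2 KO library, against 32.5% with neither, and 10 of 39 (25.6%) in the second, against 13.5%. All 39 were present in both Olfr1507 libraries, as were 96.0% and 99.2% of those with neither. Over the weakest 5 bins 32 of 305 (10.5%) had a peak in the first Lhx2 KO library, against 6.74% with neither, and none in the first Olfr1507 library, against 1.26%. The first Lhx2 KO list thus reached weak control regions that the first Olfr1507 list, of similar length, did not.

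**Figure D4:**
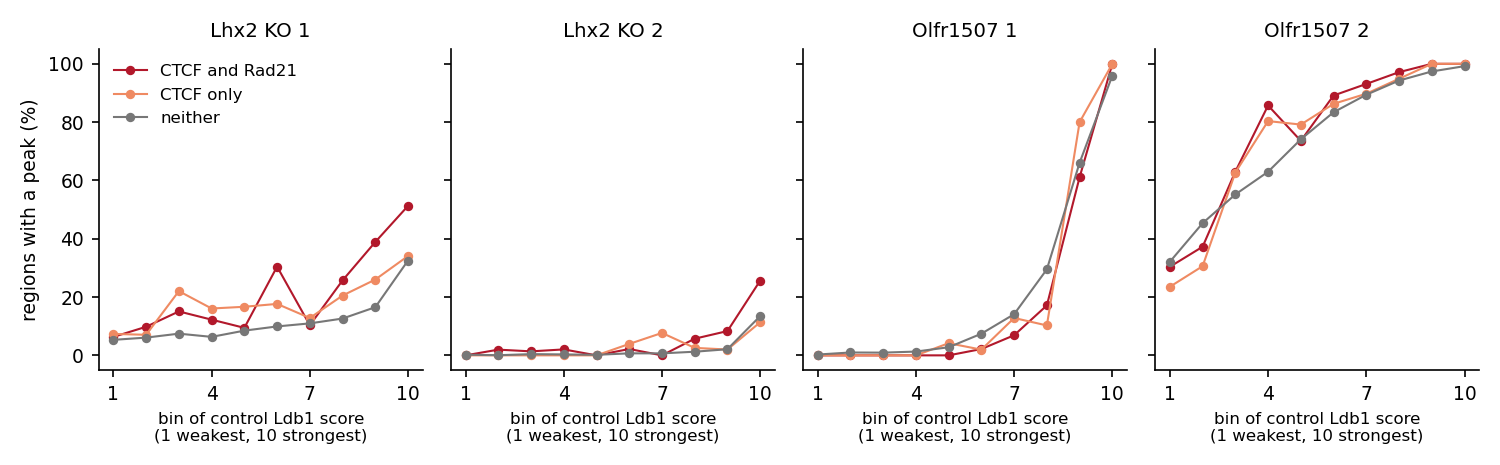
Share of regions with a peak (y axis, percent) in 10 bins of control Ldb1 score (x axis, 1 weakest and 10 strongest), one panel per Ldb1 library. Each bin has 29 to 79 regions with CTCF and Rad21 and 2010 to 2188 with neither. Regions with CTCF alone are drawn as a further curve. Shares are highest in the strongest bins, and in the strongest bin the Lhx2 KO shares are 51.3% and 25.6% at regions with CTCF and Rad21 against 32.5% and 13.5% with neither.

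Among the peaks found again in Lhx2 KO neurons, median distances to the nearest CTCF centre were 146.5 and 143 bases in the first Lhx2 KO library and 138 and 136 in the second, more than the 97 to 107 bases over all control peaks. At the same regions, however, control Ldb1 peaks were also far from CTCF, at 119 to 144 bases in the 3 control libraries set against the first Lhx2 KO library and the second CTCF library. Of 90 such regions with a peak in the second control library, 46 had the Lhx2 KO centre farther from CTCF than the control centre and 43 nearer. At the regions found again, control Ldb1 thus also lay farther from CTCF than over all 490. Their Lhx2 KO and control centres were 42.5 to 61 bases apart in the first library and 24 to 33.5 in the second, where control replicates over all 490 were 28 to 32 apart. Regions with neither had similar distances, 45 to 48 bases in the first Lhx2 KO library and 31 to 32 in the second.

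In all, 18 of the 490 (3.67%) had a peak in both Lhx2 KO libraries, against 1.68% of all control Ldb1 regions, and 93 (19.0%) in at least 1, against 13.2%. By control Ldb1 rank the first of the 18 was a region 74.2 kb from Caprin1, an RNA-binding protein of stress granules (chr2:103871847-103872187). Its Ldb1 scores were 460, 476 and 339 in control, 16 and 14 in Lhx2 KO and 133 and 435 in Olfr1507+ cells. The second lay in Homer2, which encodes a postsynaptic scaffold protein (chr7:81697868-81698218), with scores of 449, 469 and 337 in control, 29 and 31 in Lhx2 KO and 127 and 452 in Olfr1507+ cells. Scores are not on a common scale across lists, so these values rank a peak only within its own library. Next came regions in or nearest to Nell2, Srsf3, a splicing factor, Ssx2ip, Gm42427, Slc24a2, a potassium-dependent sodium/calcium exchanger, Sgsm2, Fam13c and Slc34a1, a sodium/phosphate cotransporter. The Nell2 region (chr15:95366544-95366884) combined Ldb1 scores of 398, 422 and 267 with CTCF scores of only 14 and 23 and Rad21 scores of 10 and 13.

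No peak in any of the 4 libraries was seen for 126 of the 490 (25.7%), against a background of 24.8%, so this share was near that of all control Ldb1 regions. The highest-ranked of them in control Ldb1 lay 29.4 kb from Acpp, an acid phosphatase, with control scores of 40, 59 and 36. It was followed by regions at Stn1, a subunit of the telomere-capping CST complex, and Sorbs2, an adaptor protein of the actin cytoskeleton. Further down were Plekha6, Adsl, Dscaml1, Hap1, Sestd1 and Ttc7b. Both Olfr1507 libraries had a peak at 70 regions (14.3%), against 21.6% of all control Ldb1 regions.

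The design also allows the reverse question, how much of each Ldb1 list fell on joint CTCF and Rad21 sites, which were defined without Ldb1. The share was 2.27%, 2.20% and 1.91% in the 3 control lists, 2.82% and 3.69% in the Lhx2 KO lists and 1.295% and 1.98% in the Olfr1507 lists. Both Lhx2 KO lists were above all 3 control lists, while the second Olfr1507 list fell within the control range. The Lhx2 KO mean of 3.26% ± 0.61 (SD, n = 2) exceeded the control mean of 2.12% ± 0.19 (SD, n = 3) by 1.13 percentage points (exact permutation p = 0.1, two-sided, the smallest that 2 against 3 libraries allow, adjusted p = 0.4). The Olfr1507 mean of 1.64% ± 0.48 (SD, n = 2) was lower than control by 0.49 points, a difference of -0.486 (exact permutation p = 0.3, adjusted p = 0.444). Both comparisons use the same 3 control libraries.

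The Lhx2 KO lists also stood above control at equal length. Among the top 542 peaks of each list, 20 and 20 of the Lhx2 KO peaks lay at joint sites, against 11, 10 and 11 in control and 11 and 11 in the Olfr1507 lists. The Lhx2 KO difference was then 1.72 points (exact permutation p = 0.1) and the Olfr1507 difference turned to 0.06 (exact permutation p = 1). The Lhx2 KO difference turned to -0.06 when at least 50% of both the peak and the joint site had to overlap. Lhx2 KO peaks were 244 and 212 bases wide and control peaks 316 to 338 bases, and the part of width in this result was not tested. It fell to 0.45 points when only the top-scoring 50% of each list was used, and was 0.70 without the second Lhx2 KO library and 2.21 without the first CTCF library. Of the joint sites with a peak in the first Lhx2 KO list, 83 of 121 held one of the 490 regions and 38 (31.4%) had no control Ldb1 region, near the 32.6% of all peaks in that list. In the second list it was 18 and 2 of 20 (10.0%, against 8.86% of all its peaks). In the Olfr1507 lists 2 of 66 (3.03%) and 79 of 421 (18.8%) had none, against 2.37% and 21.2% of all peaks.

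**Figure D5:**
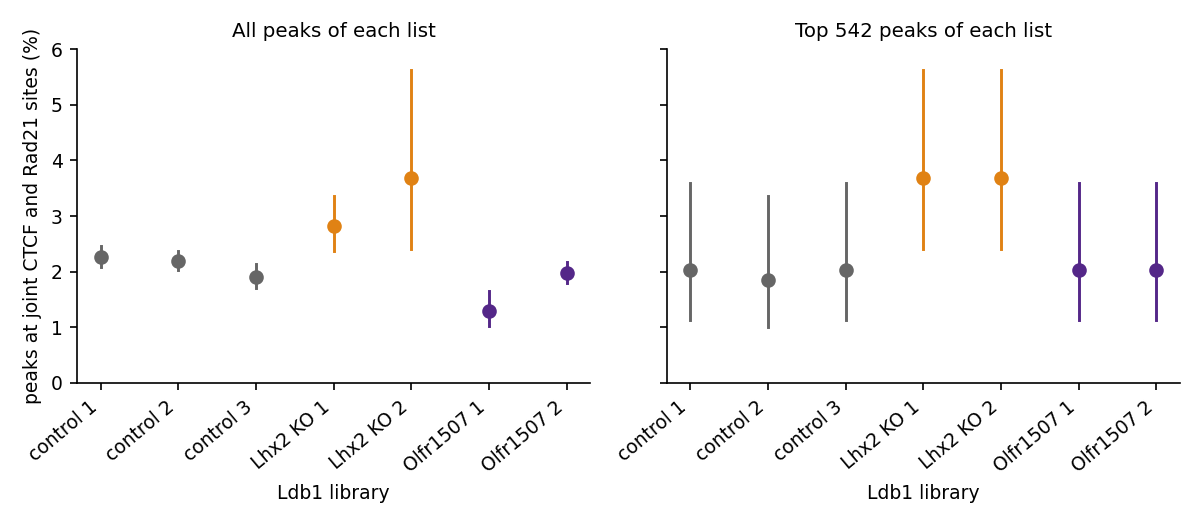
Share of the peaks of each Ldb1 list at joint CTCF and Rad21 sites (y axis, percent), for whole lists on the left and for the 542 peaks with the highest scores on the right. Points are libraries and lines 95% Wilson intervals, which cover counting error only. Both Lhx2 KO libraries lie above the 3 control libraries in both panels, at 3.69% each among the top peaks.

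The 490 regions lay near the ends of protein-coding genes more often than control Ldb1 regions with neither a CTCF nor a Rad21 region. Within 1 kb of the start or end of a protein-coding gene lay 112 (22.9%, 95% Wilson interval 19.4 to 26.8), against 11.3% of all control Ldb1 regions. The share was 10.5% with neither, 11.0% with Rad21 alone and 30.6% with CTCF alone. A promoter window, 250 bases before to 50 bases after a RefSeq start, was overlapped by 71 (14.5%), against 6.78% of all, 6.27% with neither and 18.6% with CTCF alone. Bodies of protein-coding genes held 57.3% of the 490 and 62.7% of those with neither. Beyond 50 kb from the body of any protein-coding gene lay 46 (9.39%), against 16.1% with neither. Regions are not replicates and neighbouring ones share libraries, so no test was made of these shares.

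They were spread over the genome. The nearest other of the 490 lay a median of 883 kb away, and 54 (11.0%) had one within 100 kb. Chromosome 2 held the most, 49 (10.0%, against 7.63% of regions with neither), followed by chromosome 11 with 42 and chromosome 1 with 37. The X chromosome held 2 (0.41%, against 2.05% of regions with neither). Any other control Ldb1 region was a median of 14.3 kb away, close to the 14.9 kb of regions with neither.

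Shares also differed by promoter position, though not in every library. At promoter windows 22 of 71 (31.0%) had a peak in the first Lhx2 KO library and 2 of 71 (2.82%) in the first Olfr1507 library. Away from promoters these shares were 16.7% and 16.2%. The second Lhx2 KO library had nearly equal shares, 4.23% at promoters and 3.82% away, and the second Olfr1507 library had 56.3% and 73.3%. Regions with neither showed the same order at promoters in the first libraries, 22.7% and 5.67%. Away from promoters 10.7% of those with neither had a peak in the first Lhx2 KO library. Dusp23 (chr1:172632989-172633360) had a peak in all 4 libraries, with control Ldb1 scores of 89, 106 and 53. The region just upstream of the start of Mpc2, a subunit of the mitochondrial pyruvate carrier, overlapped its promoter window without reaching the start. It was found in both Lhx2 KO libraries and in the second Olfr1507 library, with control Ldb1 scores of 34, 47 and 18. Of the other promoters printed above, 4930471G24Rik and Sh3gl1, an endophilin, had a peak in the first Lhx2 KO library and Vps18, Gosr1 and Wdr18 in neither Lhx2 KO library.

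The 71 regions met 85 promoter windows, and 3 motifs were searched in them on both strands. The CTCF core was in 9 of the 85 (10.6%, 95% Wilson interval 5.67 to 18.9), against 2.43% of all 32851 promoter windows. It was in 1.80% of those at Ldb1 regions with neither a CTCF nor a Rad21 region, 5.65% at regions with CTCF alone and 20.2% at joint sites without Ldb1. TAATTA, the core bound by LIM-homeodomain factors, was in 3 (3.53%), against 5.29% of all and 7.67% at regions with neither. A palindromic Ebf motif was in 2 (2.35%), against 0.904% of all, 1.74% at regions with neither and 2.42% at regions with CTCF alone. The median GC content was 62.3%, against 52.7% in all windows and 60.7% at regions with neither. A match shows only that these letters lie in the window, and no match says nothing about the factor. Windows can overlap, and those at Gm39441 and Rgs9, both with the CTCF core, met the same region. The interval above counts such windows as separate.

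Among 21775 protein-coding genes, 488 (2.24%) had one of the 490 regions within 10 kb of their body, and 39.6% had any control Ldb1 region. Of 18 genes of olfactory transduction 4 had such a region: Ano2, the calcium-activated chloride channel of the cilia, Cngb1, a subunit of the cyclic nucleotide-gated channel, and Pde1c and Pde4a, phosphodiesterases that break down cyclic AMP. The list was long in sequence, with a median gene length of 67.8 kb against 17.2 kb for all protein-coding genes, and all 18 genes had a control Ldb1 region. Ano2 held 2 regions. The stronger (chr6:125743312-125743692) had control Ldb1 scores of 79, 129 and 64, CTCF scores of 37 and 75 and Rad21 scores of 18 and 24, and a peak in the first Lhx2 KO and both Olfr1507 libraries. Pde4a had 3 regions, as many as any gene (Trim2, an E3 ubiquitin ligase, also had 3), and its strongest (chr9:21195794-21196220) had Ldb1 scores of 25 and 36 in 2 control libraries and a peak in the first Lhx2 KO library alone. The region in Cngb1 (chr8:95281486-95281823) had Ldb1 scores of 25, 25 and 13 and a peak in the first Lhx2 KO and the second Olfr1507 library. In all, 17 genes had several of the 490.

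Axon guidance genes had a region at 4 of 24: Robo2, a Slit receptor, Epha5 and its ligand Efna5, and Sema3f, a secreted semaphorin, in a list with a median gene length of 216 kb. The regions in Robo2 and Epha5 had CTCF scores of 11 and 14, and of 12 and 14, near the lowest scores of those lists. Among 22 neuronal regulators Ebf1 and Ebf4 had one. The region 0.247 kb from Ebf1 (chr11:45008344-45008681) had Ldb1 scores of 143, 151 and 88 and peaks in both Olfr1507 libraries and in neither Lhx2 KO library. Activity-dependent genes had a region at 1 of 12, Npas4, an activity-induced transcription factor. In a list of 20 genes of chromosome architecture, the regions were at Maz, a zinc-finger protein, and Pds5b, a regulator of cohesin. Pds5b had 2 regions. The stronger (chr5:150673504-150674103) had weak Ldb1 peaks, with scores of 12 and 15 in 2 libraries, and CTCF scores of 21 and 280. Of 80 ribosomal protein genes 2 had a region, Rplp2 and Rpl10a, a share of 2.50%.

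None of 1105 OR genes had one of the 490 regions within 10 kb, while 73 had a control Ldb1 region and 16 a joint CTCF and Rad21 site. The same was true of 350 vomeronasal receptor genes, 57 clustered protocadherin genes (36 with a control Ldb1 region, 16 with a joint site), 39 Hox genes and 15 trace amine receptor genes. Marker lists of the other cells of the epithelium had none either, at 0 of 14 basal progenitor, 0 of 15 sustentacular and gland, and 0 of 15 glial, immune and vascular genes, nor had immature neuron (0 of 12), Ldb1 complex (0 of 21), imprinted (0 of 14), housekeeping (0 of 16) and other-tissue genes (0 of 20). For lists with none of the 490 within 10 kb, wider distances were not counted, so a region farther off is not excluded. Over all protein-coding genes the share within 10 kb was 2.24%. Lists of 12 to 21 genes can hold none at such a share, so their zeros say little. Of 43 OR clusters, which held 0.733% of all control Ldb1 regions, 1 contained one of the 490. It lay at 1700037C18Rik on chromosome 16 (chr16:3908514-3908884), with Ldb1 scores of 12 and 37 in control libraries 1 and 2, and a peak in the first Lhx2 KO library (score 9) and the second Olfr1507 library (score 17). No region lay within 10 kb of Lhx2, Ldb1, Ctcf, Rad21, Omp, Adcy3 or Olfr1507, although Lhx2, Omp and Adcy3 each had 1 joint CTCF and Rad21 site and 4, 2 and 10 control Ldb1 regions.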

How the data were processed

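ChIP-seq peak lists of 11 libraries were used; input and RNA samples were not analysed here. The submitters' processing notes name build mm10 and, in no order or role, HOMER 4.7, Picard, SAMtools 1.3.1, Bowtie2 2.3.2, cutadapt 1.9.1 and STAR 2.5.3a; how peaks were thresholded, controlled and filtered is not given in the sources used here. The score of a peak was deposited by the authors, a whole number of unknown scale, ranked here only within its list. Only chromosomes 1 to 19, X and Y were used, 1 list per library, with no pooling before calling.

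Regions and joint sites were linked by an overlap of at least 1 base, as the report states. Libraries are the replicates: log2 ratios of shares were tested by exact sign flips and group differences by exact permutation of libraries, two-sided, at a threshold of 0.05. Intervals are 95% Wilson. Genes were placed with RefSeq's GRCm38.p6 table, which lacks strand, leaving out 340 genes on scaffold coordinates. Nearest genes and distances to gene ends and bodies used protein-coding genes only, while promoter windows also covered other annotated genes. OR clusters were runs of 3 or more OR genes at most 300 kb apart, widened by 100 kb on each side. Python 3.11, numpy 2.4.6, pandas 2.3.3 and scipy 1.17.1 were used, and the code was tested on simulated data.

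Named regions were the 10 highest by mean percentile over the 7 control lists, the 10 highest in control Ldb1 with a peak in both Lhx2 KO libraries, the 10 highest with none in the 4 other libraries (1 of them not reported here), those in OR clusters, up to 4 genes per list, and the genes always looked up. The 6 printed promoters, with Trim2, were chosen after their values were seen. The regions and gene lists were chosen with earlier results of these data known. Alternatives covered the overlap rule, the part of each list used, each library left out, the comparison class and the gene distance.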

Additional observations from a re-analysis of the deposited data

Results flagged for a closer look

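Regions with CTCF and Rad21 were found again more often than regions with neither in both Lhx2 KO libraries and less often in both Olfr1507 libraries, so the 2 groups lay on opposite sides. In the second Olfr1507 library the ratio was only -0.05, with 73.3% of regions with neither inside the interval of 66.6 to 74.7%, and it turned to 0.07 at matched control score. The difference of their mean log2 ratios was 1.20 (exact permutation p = 0.333, the smallest possible with 2 against 2 libraries), 0.62 against regions with CTCF alone and -0.73 against those with Rad21 alone. The Lhx2 KO lists were also shorter and their peaks narrower, and the part of this in the difference was not tested.

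The share of peaks at joint CTCF and Rad21 sites lay above the control mean in both Lhx2 KO libraries and below it in both Olfr1507 libraries. The gap between the groups was 1.62 percentage points; this difference was not tested. Among the top 542 peaks of each list the Olfr1507 libraries no longer lay below control.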

How the results depend on the processing

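The number of regions depends on the control lists. It was 83 with only the top-scoring 50% of each list, 271 with all 3 control Ldb1 libraries required, and 276 to 823 with 1 library left out, the extremes being 276 without the first and 279 without the second control Ldb1 library and 823 without the first Rad21 library. With a reciprocal overlap of at least 50% the mean log2 ratio over the 4 libraries was -0.0886 and the Lhx2 KO difference at joint sites -0.0612 points; against regions with Rad21 alone the mean was -1.59. Lists of equal length turned the Olfr1507 difference at joint sites to 0.0615. Leaving out 1 library gave 0.02 to 0.71 for the mean log2 ratio, 0.93 to 1.63 for its difference between Lhx2 KO and Olfr1507, 0.70 to 2.21 points for the Lhx2 KO and -0.83 to -0.14 points for the Olfr1507 difference at joint sites. The extremes came without the second Lhx2 KO (0.02, 0.70), the first Rad21 (0.71, 1.63), the first CTCF (2.21) and the first and second Olfr1507 libraries (0.93 and -0.14; -0.83).

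Replicate numbers are shared by the groups but no label ties them to a batch, so they do not pair the libraries, and peak lists allow no correlation of deviations here. With the replicate number as a block the differences were 1.20 (exact permutation p = 0.5, the smallest possible), 1.02 points and -0.59 points. Restricted to regions outside promoter windows, an alternative chosen after seeing the data, the mean was 0.31 and the difference 1.10. Within 5 kb of the start or end of a protein-coding gene lay 40.0% of the regions, and 286 protein-coding genes had a region in their body and 1155 within 50 kb. No exact test passed 0.05 under any setting, which the numbers of libraries do not allow; the unknown depth limits what an absent peak means, above all in the second Lhx2 KO library.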
